A study of Mus musculus with 2 samples.

Results

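The respiratory chain and its ATP synthase were followed at the level of their messenger RNAs in marginal zone B cells of the mouse spleen, sorted by surface CD80 into CD80high and CD80low. The subunits were taken by symbol: Nduf for complex I, Sdh for complex II, Uqcr for complex III, Cox4 to Cox8 for complex IV and Atp5 for complex V. The rule found 85 rows with 84 symbols among the 21853 protein-coding rows of the table. It reads symbols only, but it was chosen with earlier results of these data known. The CD80high cells and the CD80low cells came from the spleens of wild-type male C57BL/6 mice that had received no treatment, and each population had 1 library. The sources used here name no age, no number of mice per library and no other marker of the sort. With 1 library per population there is no replicate error, so no difference below carries a test, and each describes these libraries only.

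The respiratory chain of the inner mitochondrial membrane passes electrons from NADH through complex I, or from succinate through complex II, to complex III and then to oxygen at complex IV. Complexes I, III and IV pump protons as they do so, and complex V lets the protons flow back and makes ATP. The proteins that hold the redox centres and the proton channels are surrounded by many small accessory subunits. All members here are nuclear genes. The subunits encoded by mitochondrial DNA have no rows in the table and were not analysed here. B cells raise their respiration when they are activated or become antibody-secreting cells.

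Values are FPKM, fragments scaled by transcript length and library depth, and pairs of values give CD80high first and CD80low second. The ratio used throughout is log2((CD80high FPKM + 1)/(CD80low FPKM + 1)), so a negative ratio means a lower level in CD80high. A gene counted as measured when its mean over both libraries was at least 1 FPKM, which left 76 members and 9962 genes in all. Nearly all measured subunits were lower in CD80high: 73 of 76 had a ratio below 0, where 53.6% of all measured genes did. The median ratio was -0.31 for the subunits and -0.02 for all measured genes. A size limit of 0.32 on the log2 scale, which is a level (FPKM + 1) 25% higher in 1 library than in the other, serves below to set larger differences apart. It was passed toward lower values in CD80high by 36 of the 76, against 7.52% of all measured genes, and toward higher values by 1 of the 76, against 5.68%. None was 2-fold different in either direction, as 0.462% of all measured genes were. The FPKM of the members added up to 7584 in CD80high and 9455 in CD80low, which is 1.38% and 1.54% of the FPKM total of each library.

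The 9 members that were not measured were 6 genes at 0 FPKM in both libraries, Cox7a1, Cox6b2 and a second row of Atp5o, all described with their complexes.

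These ratios depend on how the libraries are scaled. The FPKM totals were 551206 in CD80high and 613742 in CD80low, and rescaling both to their mean adds 0.16 (log2) to every ratio before the pseudocount. The median ratio of all measured genes then moves to 0.12 and that of the subunits to -0.15, and 63 of the 76 subunits remain below 0 against 26.2% of all genes, with 11 past the size limit against 2.45%. The distance between the subunits and the rest is nearly the same on either scale: as deposited, 72 of the 76 lay below the median of all measured genes, by a median of 0.29 (log2). In a bulk library a lower level in every cell and a smaller share of cells with a high level cannot be told apart.

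**Figure D1:**
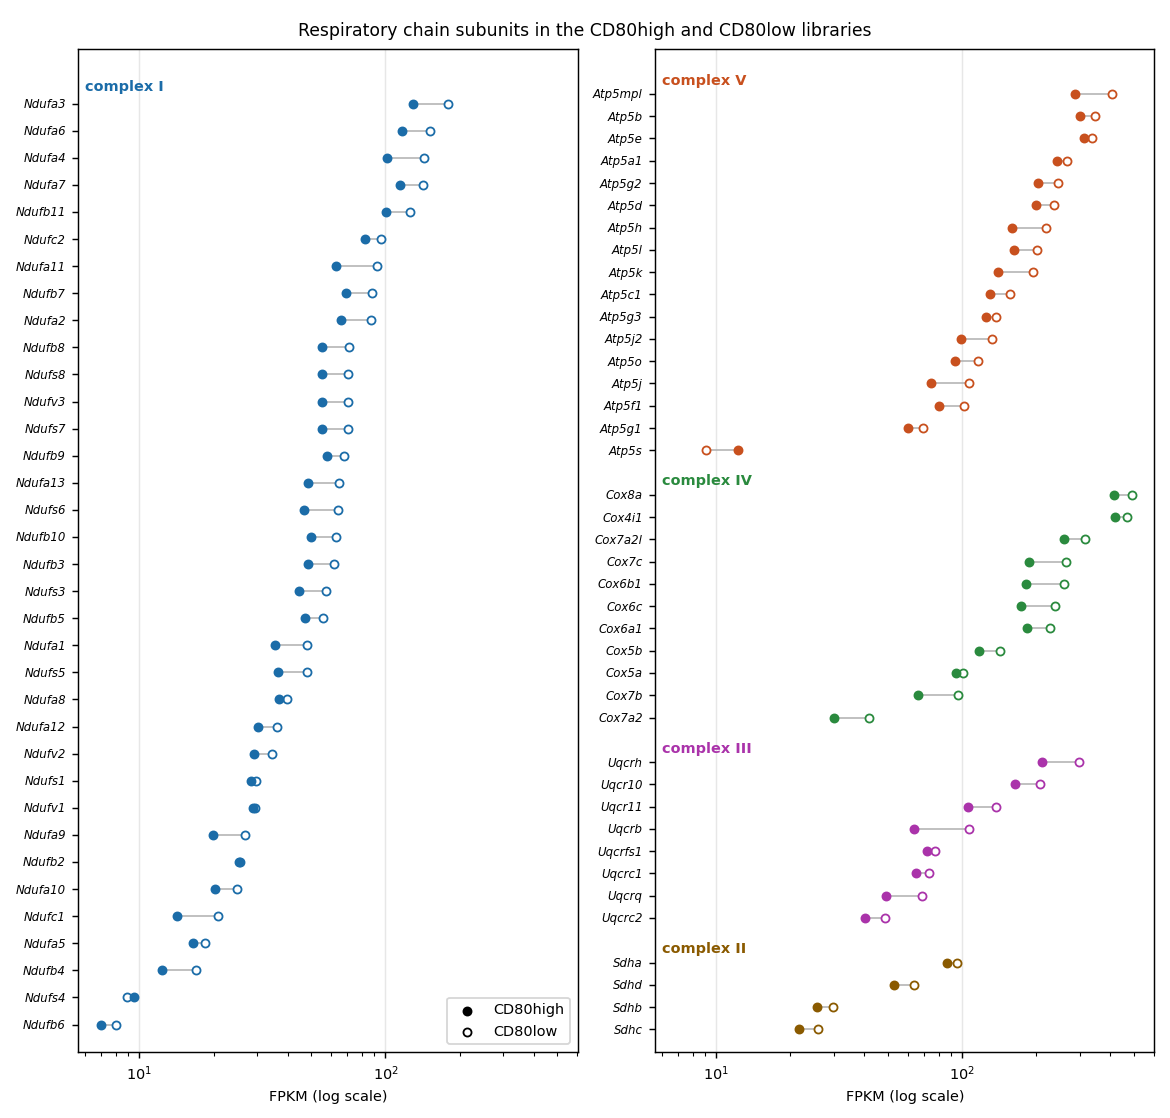
FPKM of 75 of the measured subunits (log axis) in the CD80high library (filled circles) and the CD80low library (open circles), grouped by complex and ordered by level. The open circle lies to the right for 73 genes, and Ndufs4 and Atp5s are the exceptions among those plotted.

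Markers of B cells and of marginal zone B cells were abundant. The genes Cr2 (807 and 837 FPKM), Cd1d1 (126 and 96.8 FPKM) and S1pr3 (91.2 and 68.9 FPKM) were all present, and Cd80 itself stood at 4.13 and 1.32 FPKM. Markers of other cells were low in both libraries and higher in CD80high. Their summed level was 37.9 against 16.7 FPKM for 10 natural killer cell genes (8 of them higher in CD80high), 23.8 against 17.1 FPKM for 10 T cell genes (10 higher) and 23.3 against 11.9 FPKM for 11 macrophage and monocyte genes (11 higher). It was 4.53 against 0.527 FPKM for 8 neutrophil genes (8 higher) and 7.102 against 4.38 FPKM for 7 erythroid genes (6 higher). The T cell and natural killer genes of highest level in CD80low, Lck (15.5 and 15.2 FPKM) and Prf1 (10.01 and 10.6 FPKM), were nearly level. They hold much of those sums and hide larger differences of other genes in the same lists. Of all measured genes 46.4% were higher in CD80high, but many of these marker genes were below a mean of 1 FPKM. Cd3e, Cd14, Camp, Ngp and Retnlg were listed at 0 in CD80low. The part of such cells in the ratios of the subunits was not tested. The 11 B cell genes summed to 5548 against 6023 FPKM, with 6 lower in CD80high and 5 higher. The most abundant, Cd79a (1284 and 1574 FPKM) and Cd79b (987 and 1183 FPKM), were among the lower ones. The FPKM total of all rows was also lower in CD80high, at 0.898 of CD80low.

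The promoters of nuclear respiratory genes are known to be bound by the factors NRF1, GABP (an ETS factor), YY1, ERR alpha and SP1. RefSeq promoter windows (GRCm38.p6, the assembly of mm10), which run from 250 bases before to 50 bases after a gene's start, were matched for 63 of the 76 measured subunits. The letters searched on both strands were GCATGCG for the NRF1 core, CCGGAAG for the ETS site, ATGGCGG for the YY1 core, AAGGTCA for the ERR alpha half-site and GGGCGG for the GC box of SP1. The NRF1 letters can match both strands of the palindrome in overlap. The promoters are shown for their motifs and their place in the comparison: Ndufa6 for its NRF1 core, Uqcrh and Uqcr11 for an ETS site in 2 small subunits of complex III, Cox6a1 for an ETS site beside GC boxes, and Cox5a and Cox7b as the subunits of complex IV with the smallest and the largest difference. Capitals mark the motif letters. Each line holds the 150 bases before the start, 5′ to 3′ on the gene's strand, and the line of Ndufa6 stops 31 bases before it.

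Ndufa6, chr15:82354322-82354441, minus strand: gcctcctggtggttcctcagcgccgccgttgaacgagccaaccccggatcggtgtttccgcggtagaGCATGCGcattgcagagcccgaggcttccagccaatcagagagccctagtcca
Uqcrh, chr4:116075071-116075220, minus strand: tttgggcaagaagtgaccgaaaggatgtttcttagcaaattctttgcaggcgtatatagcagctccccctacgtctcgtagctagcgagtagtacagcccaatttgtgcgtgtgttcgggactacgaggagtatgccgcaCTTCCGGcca
Uqcr11, chr10:80406822-80406971, minus strand: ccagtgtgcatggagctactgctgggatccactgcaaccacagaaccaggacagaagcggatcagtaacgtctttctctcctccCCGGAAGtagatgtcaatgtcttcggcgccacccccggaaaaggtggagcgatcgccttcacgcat
Cox6a1, chr5:115348959-115349108, minus strand: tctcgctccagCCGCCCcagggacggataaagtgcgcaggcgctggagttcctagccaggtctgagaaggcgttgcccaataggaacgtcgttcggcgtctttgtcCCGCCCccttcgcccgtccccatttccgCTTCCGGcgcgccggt
Cox5a, chr9:57521082-57521231, plus strand: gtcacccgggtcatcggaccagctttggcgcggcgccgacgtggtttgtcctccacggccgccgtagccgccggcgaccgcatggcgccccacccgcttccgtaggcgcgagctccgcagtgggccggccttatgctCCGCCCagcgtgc
Cox7b, chrX:106015550-106015699, plus strand: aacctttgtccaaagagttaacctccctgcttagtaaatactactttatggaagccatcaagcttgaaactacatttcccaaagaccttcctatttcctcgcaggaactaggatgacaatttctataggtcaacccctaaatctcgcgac

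The NRF1 core was found in the windows of 11 of 63 subunits (17.5%), against 8.15% of the 8039 measured genes with a window and 4.01% of all 27025 genes with one. The ETS site stood in 16 of 63 (25.4%, against 23.4% of measured genes and 9.93% of all), and the YY1 core in 10 of 63 (15.9%, against 10.9% and 4.69%). The ERR alpha half-site was present in 7 of 63 (11.1%, against 3.67% and 5.38%). The GC box was the rarer one among the subunits, in 25 of 63 (39.7%), where 70.3% of measured genes and 38.2% of all had it. The median ratio was -0.31 for the 11 subunits with an NRF1 core and -0.31 for the 52 without. It was -0.34 and -0.31 with and without an ETS site, and -0.33 and -0.31 with and without a YY1 core. Subunits with the ERR alpha half-site were at -0.27 against -0.32 without it, and those with a GC box at -0.28 against -0.34. For each motif the ranges with and without it overlapped. Cox7b, with none of the 5 motifs in the 150 bases shown, had the most negative ratio of complex IV. Another shared trait was a neighbour: 19 of the 76 measured subunits (25%) had the start of an oppositely directed coding gene within 1000 bases of their own, against 11.9% of all measured genes.

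Complex I, the NADH dehydrogenase, had 36 measured members of 37, with a median ratio of -0.34, and 34 were lower in CD80high (30 after rescaling). The nuclear core subunits carry the flavin, the iron-sulfur clusters and the quinone site, and their ratios were unequal. Ndufv1, the flavin subunit where NADH binds, had 28.9 and 29.6 FPKM, a ratio of -0.04. Ndufs1, the largest iron-sulfur subunit, had 28.4 and 29.7 FPKM, a ratio of -0.06. The counting intervals given further on include equal levels for both. Other core subunits were lower in CD80high, also after rescaling. Ndufs3 had 44.5 and 57.1 FPKM, a ratio of -0.35. Ndufs7, which holds the last cluster before quinone, had 54.96 and 70.2 FPKM, a ratio of -0.35. Ndufs8 had 55.5 and 70.6 FPKM, a ratio of -0.34. These 3 passed the size limit by a small margin, while Ndufv2, of the NADH-binding module, stayed inside it with 29.2 and 34.7 FPKM, a ratio of -0.24.

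The 28 supernumerary subunits of complex I surround that core and are needed for its assembly or stability. Their median ratio was -0.35, against -0.24 for the core, and 27 of 28 were lower (25 after rescaling). The ranges of the core and the supernumerary subunits overlapped. Ndufa11, a membrane subunit, had the most negative ratio of the complex, with 63.1 and 92.5 FPKM, a ratio of -0.54. Ndufc1, a small membrane-arm subunit, had 14.2 and 20.8 FPKM, a ratio of -0.52. Ndufa3, among the most abundant messages of the complex, had 129.8 and 179 FPKM, a ratio of -0.46. All 3 lay far outside the middle of the gene distribution, whose quartiles were -0.15 and 0.11. Ndufs6, a zinc-binding subunit, had 46.7 and 64.3 FPKM, a ratio of -0.45. Ndufa1, an X-linked membrane subunit, had 35.4 and 48.2 FPKM, a ratio of -0.43. Ndufb4 had 12.4 and 17.1 FPKM, a ratio of -0.43. They were followed by Ndufa13, also known as GRIM-19, which had 48.4 and 64.95 FPKM, a ratio of -0.42. Ndufa9, which helps to shape the quinone site, had 19.95 and 26.9 FPKM, a ratio of -0.41. Ndufa2 had 65.9 and 87.6 FPKM, a ratio of -0.41. In this band, levels differed several-fold between genes while the ratios were alike. Ndufs5 had 36.4 and 48.2 FPKM, a ratio of -0.39. Ndufa6, whose promoter is printed above, had 117 and 152 FPKM, a ratio of -0.38. Ndufb8, a protein often used to follow assembly of the complex, had 55.1 and 70.8 FPKM, a ratio of -0.36.

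The last subunits of complex I past the size limit lay between -0.35 and -0.34. They were Ndufb7 (69.04 and 88.1 FPKM), Ndufb3 (48.4 and 61.8 FPKM), Ndufv3 (55.3 and 70.5 FPKM) and Ndufb10 (49.6 and 63.2 FPKM). Inside the limit, ratios ran from -0.32 for Ndufb11, just short of it, to 0.08 for Ndufs4. Ndufs4, an accessory subunit of the NADH-binding arm that is mutated in Leigh syndrome, had 9.496 and 8.92 FPKM. It was the supernumerary subunit with a higher value in CD80high, and its approximate counting interval for CD80high over CD80low, 0.861 to 1.31, includes 1. Between them lay Ndufb11 (101 and 126 FPKM), Ndufa7 (115 and 142 FPKM), Ndufa10 (20.2 and 25.01 FPKM), Ndufa12 (30.2 and 36.3 FPKM) and Ndufb5 (46.9 and 55.8 FPKM). Closer to 0 were Ndufb9 (57.7 and 67.8 FPKM), Ndufc2 (82.8 and 95.8 FPKM), Ndufb6 (6.98 and 8.05 FPKM) and Ndufa5 (16.5 and 18.4 FPKM), whose ratios ran from -0.23 to -0.16. Ndufb2 (25.3 and 25.6 FPKM) and Ndufa8 (36.9 and 39.8 FPKM) were nearly level, and after rescaling these, Ndufs4, Ndufv1 and Ndufs1 were above 0. The levels within the complex were unequal: the mean over both libraries ran from 7.51 FPKM for Ndufb6 to 155 FPKM for Ndufa3, although each subunit stands once in the assembled enzyme.

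Ndufa4 was named for complex I but its protein is now placed in complex IV. It had 102 and 144 FPKM, a ratio of -0.50. Subunits of several complexes were close to that, such as Cox6b1 of complex IV (-0.51), Ndufc1 of complex I (-0.52) and Atp5j of complex V (-0.50). The ratio thus does not set Ndufa4 with 1 complex. Ndufa4l2, the paralogue of Ndufa4 and known as a hypoxia-induced gene, was listed at 0 FPKM in both libraries.

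**Figure D2:**
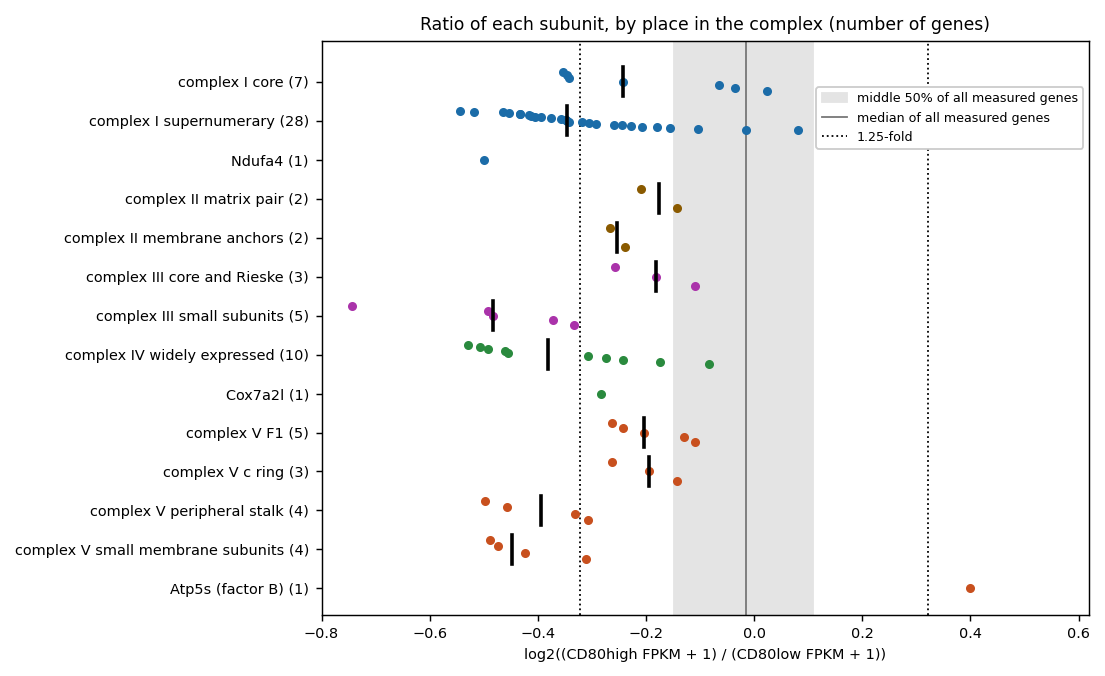
The ratio log2((CD80high FPKM + 1)/(CD80low FPKM + 1)) of each measured subunit (points), with the median of each group (black bars), by place in the complex. The grey band is the middle 50% of the 9962 measured genes and dotted lines mark the size limit. The groups of small subunits of complexes III and V lie farther left than the core and Rieske group and the F1 head.

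Complex IV, cytochrome c oxidase, keeps its catalytic subunits in mitochondrial DNA, so the members here are the nuclear subunits around them. All 11 measured genes were lower in CD80high (10 after rescaling), with a median ratio of -0.31. The size limit was passed by 5 of them, against 7.52% of all measured genes. Cox7b, an X-linked membrane subunit, had 66.04 and 95.7 FPKM, a ratio of -0.53. Cox6b1, on the intermembrane side, had 181 and 258 FPKM, a ratio of -0.51. Cox7c had 187 and 263 FPKM, a ratio of -0.49. Their ratios were close to each other, although Cox7b had the lowest level of the 3. Cox7a2 had 30.1 and 41.8 FPKM, a ratio of -0.46. Cox6c had 173 and 238 FPKM, a ratio of -0.46. The other members of the complex were lower by less. Cox6a1 had 183 and 226 FPKM, a ratio of -0.31. Cox5b had 117 and 142 FPKM, a ratio of -0.27. The most abundant messages of the whole chain, Cox8a and Cox4i1, were among those with the smaller differences. Cox8a had 412 and 488 FPKM, a ratio of -0.24. Cox4i1, the regulatory subunit that binds ATP, had 416 and 469 FPKM, a ratio of -0.17, and the authors assigned its fragments within a locus of 74 genes. Cox5a, its partner early in assembly, had 94.6 and 100.4 FPKM, a ratio of -0.08 and was the member above 0 after rescaling. Cox7a2l, known as an assembly factor of supercomplexes of III and IV, had 258 and 315 FPKM, a ratio of -0.28.

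Several subunits of complex IV have isoforms made in particular tissues, and the table listed the widely used form alone at an appreciable level. Cox4i2, Cox6a2, Cox7b2, Cox8b and Cox8c, forms of lung, heart and skeletal muscle or testis, were at 0 FPKM in both libraries. Cox6b2, a testis form, had 0.396 and 1.42 FPKM. Cox7a1, the form of heart and skeletal muscle, had 1.396 FPKM in CD80low and was listed at 0 in CD80high. Neither reached a mean of 1 FPKM. For Cox7a1 the authors' deposited table gives a p-value of 0.0087 and a q-value of 0.9699.

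Complex III, the cytochrome bc complex, had a median ratio of -0.35 over 8 members, all lower in CD80high (7 after rescaling). The core proteins and the Rieske protein, which carries the iron-sulfur cluster, differed least. Uqcrfs1, the Rieske protein, had 71.97 and 77.7 FPKM, a ratio of -0.11, and it was the member above 0 after rescaling. Uqcrc1 had 64.7 and 73.5 FPKM, a ratio of -0.18. Uqcrc2 had 40.3 and 48.4 FPKM, a ratio of -0.26. None of these 3 passed the size limit, while all 5 small subunits did, and the ranges did not overlap. The limit was passed as lower by 7.52% of all measured genes. In the shortest length bin described further on, 27.5% of the genes that are not subunits passed it. The 5 small subunits fall in that bin, as does Uqcrc1 by its annotated length. Uqcrb, which binds ubiquinone, had the most negative ratio of all measured subunits (ENSMUSG00000021520, chromosome 13, 66900617 to 66905378, minus strand, mm10). It had 63.4 and 107 FPKM, a ratio of -0.74. CD80high was at 0.594 of CD80low, and counting error alone allows roughly 0.542 to 0.649 (95%). The authors assigned its fragments within a locus that holds 4 genes of the table. Its p-value there, in the authors' deposited table, is 0.145. Uqcrh, the hinge protein beside the cytochrome, had 211 and 297 FPKM, a ratio of -0.49. Uqcrq had 48.8 and 68.7 FPKM, a ratio of -0.48. Uqcr11 had 105 and 137 FPKM, a ratio of -0.37. Uqcr10 had 164 and 207 FPKM, a ratio of -0.33. The ETS site printed above stands in the promoters of Uqcrh and Uqcr11, 10 and 66 bases before the start.

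Complex II, succinate dehydrogenase, is also an enzyme of the citrate cycle and has no mitochondrially encoded subunit. Its 4 members were lower in CD80high by small amounts and none passed the size limit, which 7.52% of all measured genes passed as lower. Sdha, the flavoprotein, had 86.4 and 95.5 FPKM, a ratio of -0.14. Sdhb, the iron-sulfur subunit, had 25.6 and 29.7 FPKM, a ratio of -0.21. The membrane anchors Sdhc (21.7 and 25.9 FPKM) and Sdhd (52.7 and 63.6 FPKM) had ratios of -0.24 and -0.27. The median was -0.22, and after rescaling it was -0.07, with Sdha above 0.

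Complex V, the ATP synthase, had 17 measured members of 18 rows, a median ratio of -0.26, and 16 lower in CD80high (13 after rescaling). The F1 head, which makes ATP, differed little. Atp5b, the catalytic beta subunit, had 302 and 347 FPKM, a ratio of -0.20. Atp5a1, the alpha subunit, had 243 and 266 FPKM, a ratio of -0.13. Atp5c1, the rotating gamma subunit, had 129.9 and 156 FPKM, a ratio of -0.26. Atp5d (198 and 235 FPKM) and Atp5e (313 and 338 FPKM), of the central stalk, had ratios of -0.24 and -0.11. None of these 5 passed the size limit, which 7.52% of all measured genes passed as lower, and Atp5a1 and Atp5e were above 0 after rescaling. The peripheral stalk, which keeps the head from turning, was lower, with a median of -0.39. Atp5j had 74.8 and 106 FPKM, a ratio of -0.50. Atp5h had 159.7 and 219.7 FPKM, a ratio of -0.46. Atp5f1 had 80.7 and 102 FPKM, a ratio of -0.33. Atp5o, which binds the top of the head, had 93.3 and 116 FPKM, a ratio of -0.31 and stayed just inside the limit. A second row under the symbol Atp5o was listed at 0.254 FPKM in CD80high and at effectively 0 in CD80low and was not measured.

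The small membrane subunits of complex V, several of which help to pair the synthase into dimers, had ratios like those of the small subunits of complex III, with a median of -0.45. Atp5mpl, the most abundant of them, had 288 and 405 FPKM, a ratio of -0.49. Atp5k had 139.6 and 194 FPKM, a ratio of -0.47. Atp5j2 had 98.3 and 132 FPKM, a ratio of -0.42, and Atp5l, just inside the size limit, had 161 and 200.5 FPKM, a ratio of -0.31. Every measured gene of the peripheral stalk and of these membrane subunits had a lower ratio than any of the 5 genes of the F1 head. The groups also differ in transcript length, as described further on.

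The c ring, through which the protons pass, is encoded by 3 genes whose proteins differ in their import sequence and give the same mature subunit. Atp5g2 had 204 and 245 FPKM, a ratio of -0.26. Atp5g1 had 60.3 and 69.2 FPKM, a ratio of -0.20. Atp5g3 had 125 and 138 FPKM, a ratio of -0.14. The balance among them was nearly equal in the libraries: Atp5g2 made 52.4% of their FPKM in CD80high and 54.2% in CD80low, Atp5g3 32.1% and 30.5%, and Atp5g1 15.5% and 15.3%.

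Atp5s was the exception of the whole set. It encodes factor B, a protein found with the synthase that is not one of its structural subunits, and it had 12.3 and 9.07 FPKM, a ratio of 0.40. The approximate counting interval of its fold was 1.09 to 1.68, or 0.8601 to 2.097 with 25% of the fragments, and the authors' deposited table gives it a p-value of 0.40. It is the 1 member past the size limit as higher, and with a pseudocount of 5 it was inside the limit.

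Without counts in the files, the depth behind these values was approximated. Among long single-transcript genes, values in a low window (0.03 to 0.06 FPKM kb) were taken to stand for 1 fragment. Their median puts each library at roughly 23000000 fragments. The limits of that window bound this figure in advance, so it is an assumed depth and not a measured one. With annotated lengths, 66 of the 76 subunits had a fold whose approximate 95% interval (exact, Clopper-Pearson) lay below 1, against 25.2% of all measured genes. Annotated length overstates the fragments of short transcripts. With 25% of the fragments 54 of 76 did, against 10.2%. The full intervals of Ndufb6, Ndufa5, Ndufa8, Ndufs1, Ndufv1, Ndufb2, Ndufs4 and Cox5a include 1, so no difference was detectable for them at the assumed depth. Such intervals hold counting error alone; differences between mice, library preparation and the sharing of fragments among transcripts are not in them. The authors' deposited table holds a test for 78 members, and 5 had a p-value of at most 0.05 with a lower value in CD80high, which is 6.41%, against 0.555% of all tested rows. They were Cox7a1, Cox7b (0.0377), Cox6b1 (0.04205), Cox7c (0.0445) and Uqcrh (0.0475). All 5 have q-values of at least 0.9699 in the authors' deposited table, and those p-values compare 2 libraries, not the populations.

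The subunits have short transcripts, and ratios in these libraries varied with transcript length. The median annotated length was 671 nucleotides for the measured subunits and 2085 for all measured genes, and 33 of the 76 fell in the shortest of 20 equal length bins (up to 628.5 nucleotides). In that bin the median ratio of the other 466 genes was -0.11 and 27.5% of them passed the size limit as lower, while the median of the 33 subunits was -0.39 and 22 of them did. Among the subunits themselves longer transcripts had ratios nearer 0 (Spearman's rho 0.459, Pearson's r with log2 length 0.40, across 76 genes of the same 2 libraries, which are not replicates). When each ratio was set against the median of its length bin, 68 of the 76 subunits were still below it, with a median difference of -0.19, and 16 were below it by the size limit or more, against 4.13% of all measured genes. These 16 were Uqcrb, Uqcrh and Uqcrq of complex III, Cox7b, Cox6b1, Cox7c, Cox7a2 and Cox6c of complex IV, Atp5j, Atp5mpl, Atp5k and Atp5h of complex V, and Ndufa11, Ndufc1, Ndufa3 and Ndufa4. The medians after this adjustment were -0.22 for complex I, -0.13 for complex II, -0.22 for complex III, -0.18 for complex IV and -0.18 for complex V. The contrast between the small subunits and the core, Rieske and F1 groups also went with length. The small subunits of complex III had a median of 474 nucleotides and an adjusted median ratio of -0.35. Its core and Rieske genes had 1179 nucleotides and -0.05. That -0.05 is the value of Uqcrc1, which its annotated length of 533 nucleotides puts in the shortest bin. For the small membrane subunits and the F1 head of complex V the lengths were 488 and 1000 nucleotides and the adjusted medians -0.32 and -0.13. Atp5e of the F1 head is short too (421 nucleotides), with an adjusted ratio of 0.02. The annotated median can miss the transcript in use in both directions. Atp5g1 (2676 nucleotides) and Cox7b (1001 nucleotides) may be listed too long, and Uqcrc1 (533 nucleotides) and Ndufs1 (651 nucleotides) too short. Their adjusted ratios and approximate fragments carry this error. The part of RNA or library quality in this trend was not tested.

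**Figure D3:**
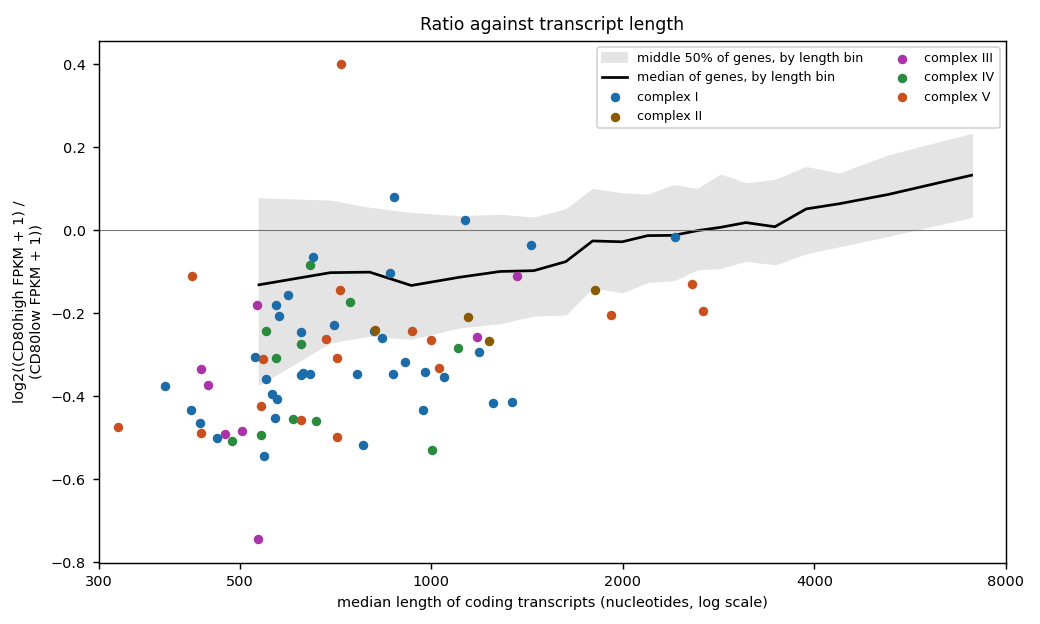
Ratio of each measured subunit (points, coloured by complex) against the median annotated length of its coding transcripts (log axis). The line and band give the median and middle 50% of all measured genes in 20 length bins, and 68 of the 76 subunits lie below the median of their own bin.

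Other nuclear genes of mitochondrial respiration were read from lists chosen by function. Of 55 measured assembly factors, which build the complexes without staying in them, 45 were lower in CD80high (53.6% of all measured genes were), and 34 after rescaling (26.2% of all). The size limit was passed by 15 as lower and by 0 as higher, where 7.52% and 5.68% of all measured genes passed it. Their median ratio was -0.18, and -0.13 after adjustment for length. Pet117 (3.11 and 5.79 FPKM), Cmc1 (6.79 and 11.4 FPKM) and Cox16 (22.2 and 35.8 FPKM), which act in building complex IV, had ratios of -0.73, -0.67 and -0.66. The ratios of genes at such low levels depend on the pseudocount. With 5 in place of 1 Pet117 was at -0.41, Cmc1 at -0.48 and Ndufaf2 at -0.41. With that pseudocount 10 of the 55 factors passed the size limit as lower, against 4.03% of all measured genes. Higd2a, also of complex IV and the most abundant assembly factor, had 109 and 139.8 FPKM, a ratio of -0.36. For complex I, Ndufaf2, a chaperone of late assembly, had 3.97 and 6.897 FPKM, a ratio of -0.67. Uqcc2, which helps to make the mitochondrial cytochrome b of complex III, had 34.6 and 55.00 FPKM, a ratio of -0.65. Other assembly factors past the size limit included Ndufaf8 of complex I (15.96 and 21.05 FPKM), Sdhaf4 of complex II (12.8 and 16.4 FPKM) and Tmem242 of complex V (34.7 and 43.7 FPKM), with ratios of -0.38, -0.34 and -0.33, all inside it with a pseudocount of 5. The most abundant factors of complexes I, II and III were Dmac1 (55.2 and 62.4 FPKM, a ratio of -0.17), Sdhaf2 (38.6 and 45.7 FPKM, a ratio of -0.24) and Uqcc2. Some factors with long transcripts were close to level, such as Cox15, an enzyme of heme A synthesis (9.06 and 9.07 FPKM), and Lrpprc, which stabilises mitochondrial messenger RNAs (20.5 and 19.4 FPKM).

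Subunits and carriers that the symbol rule leaves out were low in CD80high too. All 5 measured ones were lower in CD80high (4 after rescaling), with a median of -0.34. Atpif1, the inhibitor of the ATP synthase, had 64.4 and 89.2 FPKM, a ratio of -0.47. Usmg5, a small synthase subunit, had 154 and 201 FPKM, a ratio of -0.38. Cycs, cytochrome c, had 10.6 and 13.7 FPKM, a ratio of -0.34 (inside the size limit at -0.26 with a pseudocount of 5). Ndufab1 and Cyc1, subunits of complexes I and III, had ratios of -0.22 and -0.13. A list of mitochondrial import, outer membrane, carrier and prohibitin genes had 21 of 22 lower, against 53.6% of all measured genes (14 after rescaling, against 26.2%). The size limit was passed as lower by 10 of them, against 7.52%. With a pseudocount of 5 it was passed by 8, against 4.03% of all measured genes. The median ratio, with a pseudocount of 1, was -0.20. Slc25a5, the ADP/ATP carrier of growing cells, had 355 and 394 FPKM, a ratio of -0.15, and Slc25a3, the phosphate carrier, 285 and 288 FPKM, a ratio of -0.01. Tomm7 (12.5 and 17.6 FPKM) and Timm10 (14.9 and 20.2 FPKM) had the most negative ratios, -0.46 and -0.42.

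Genes that regulate the nuclear respiratory programme and mitochondrial DNA had both positive and negative ratios. Of 18 measured, 11 were higher in CD80high, where 46.4% of all measured genes were, and 7 were lower (3 after rescaling, where 26.2% of all were lower), with a median of 0.09. Past the size limit as higher were 3 of the 18, against 5.68% of all measured genes. Ppargc1b, a coactivator of mitochondrial biogenesis, had 4.65 and 3.36 FPKM, a ratio of 0.37. Its relative Ppargc1a had 1.29 and 0.794 FPKM, a ratio of 0.35. Polg2, a subunit of the mitochondrial DNA polymerase, had 6.13 and 4.66 FPKM, a ratio of 0.33. With a pseudocount of 5 these 3 were inside the limit, at 0.21, 0.12 and 0.20. Tfam, which packages and transcribes mitochondrial DNA, was the 1 past the limit as lower, against 7.52% of all measured genes. It had 36.9 and 48.4 FPKM, a ratio of -0.38. Of the factors whose motifs were searched, these 4 stayed inside it: Nrf1 had 20.9 and 23.8 FPKM, Gabpa 24.9 and 27.2 FPKM, Yy1 28.7 and 27.5 FPKM and Esrra 31.8 and 28.97 FPKM. The lists differ in length, with a median of 1980.0 nucleotides for the regulators and 1208 for the list of import and carrier genes. After adjustment for length their medians were 0.06 and -0.16.

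**Figure D4:**
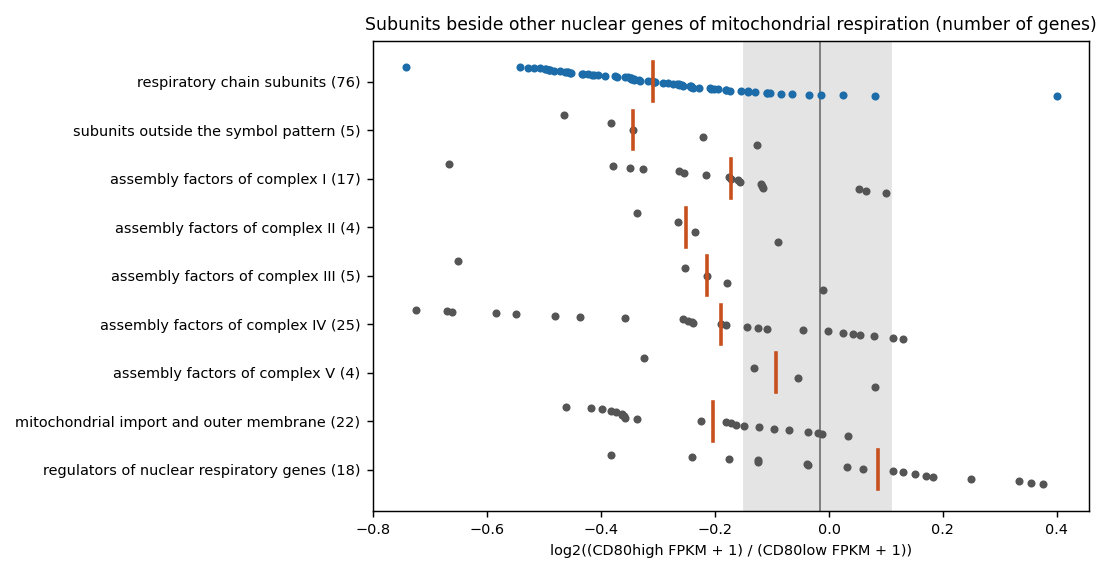
Ratio log2((CD80high FPKM + 1)/(CD80low FPKM + 1)) of each measured gene (points) and the median of each list (orange bars) for the 76 subunits and 8 lists of related genes. The grey band is the middle 50% of all measured genes and the grey line their median. The list of regulators has its median above 0 and the others below. The list labelled import and outer membrane also holds carriers and prohibitins.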

How the data were processed

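Messenger RNA libraries of CD80high and CD80low marginal zone B cells, 1 of each, were analysed. Per the labels' protocols, the RNA came from a Promega Maxwell procedure and the strand-specific libraries from an MGI kit. Per the submitters' processing notes, reads were handled with STAR 2.6, Cufflinks 2.2.1, Cuffdiff, Cuffnorm and FastQC 0.11.5 on mm10, with no role or order stated. The sources used here do not say if counting took account of strand. The deposited expression values are FPKM, and each gene's p-value and q-value are the authors', per the file headers. FPKM shares fragments among transcripts and overlapping genes by a model. Of the 76 measured subunits, 20 (26.3%) lay in an authors' locus with another gene, near the 23.1% of all measured genes. Many respiratory genes also have processed pseudogenes.

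From the deposited FPKM, ratios used a pseudocount of 1 and a minimum mean of 1 FPKM, rows were kept apart by Ensembl identifier, and no test was run because each population has 1 library. Depth was approximated from the median of values between 0.03 and 0.06 FPKM kb in single-transcript genes over 2000 nucleotides. This way was chosen after the values were seen, and the window limits the depth it can give. Transcript lengths (median of coding transcripts) and positions came from GENCODE M21 (GRCm38), matched for all 21853 rows. Length adjustment subtracted the median ratio of measured genes in each of 20 bins. It was run on simulated data in which the shifted genes were drawn at random over all lengths. The subunits crowd into the short bins, so that simulation does not cover their setting. They also count in the medians of their bins: the shortest bin had a median of -0.13 with them and -0.11 without. The values of 5 rows, none of them a member, differed between the 2 sheets. The members and lists were chosen with earlier results of these data known. Named genes are, per complex, the 3 most negative and 2 most positive ratios, the 2 most abundant, members past the size limit (0.32, log2) and tissue paralogues; per list, the 2 most abundant and the 2 with the largest ratio, with others named for their function after their values were seen. Some genes are counted but not reported by name here. Alternatives were pseudocounts of 0.1 and 5, other filters, rescaling, centring, adjustment for length or level, and the overview sheet. Software was matplotlib 3.10.9, scipy 1.17.1, pandas 2.3.3 and numpy 2.4.6 under Python 3.11.15.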

Additional observations from a re-analysis of the deposited data

How the results depend on the processing

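No paired analysis was possible because each population has 1 library. Medians were taken to have moved at a shift of 0.1 (log2) and counts at a factor of 1.5. Rescaling both libraries to their mean total moved the medians to -0.15 for all subunits, -0.19, -0.075, -0.20, -0.15 and -0.11 for complexes I to V and -0.049 for assembly factors, and left 11 subunits past the size limit. Adjustment for transcript length gave -0.19 for all subunits, -0.22 for complex I, -0.22 for complex III and -0.18 for complex IV, with 16 subunits past the size limit. Both together, added after the data were seen, gave -0.18 and 14, where 4.41% of all measured genes were past the limit as lower. Subtracting bin medians takes out a shift common to all ratios, so this run nearly repeats the adjustment for length alone. Adjustment for level moved complex IV to -0.18. With no filter complex IV stood at -0.46 and 1 member, Cox7a1, passed 2-fold. The approximate counting interval, also added later, lay below 1 for 66 subunits. No median of the subunits or of a complex changed sign under any alternative run. Pseudocounts of 0.1 and 5, a filter of 5 FPKM, centring and the overview sheet moved none of these values past those limits. For the subunits the filter and the overview sheet could move nothing. The lowest measured subunit had a mean of 7.51 FPKM, and the sheets hold the same values for all members. Leaving out the 20 subunits in shared loci, and counting Ndufa4 with complex IV, both added later, were run only for the count lower and the median of the members, and for the medians of complexes I and IV; none moved past them. The counts of list genes past the size limit with a pseudocount of 5 were also added later. Of 116 single-gene ratios, 83 left their approximate counting interval on rescaling, 54 on adjustment for length, 8 with a pseudocount of 5 and 0 with 0.1, and none past the size limit changed sign.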
